A study of Mus musculus with 42 samples.

Results

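The subject here is the mitochondrial carrier family Slc25a in the mouse cerebellum. Members were all protein-coding genes named Slc25a followed by a number in both deposited count tables, which gave 47 of 35275 genes listed, and no measured value entered the choice. RNA-seq covered 30 libraries of cerebellum from male C57BL/6 mice (C57/BL6NTac in the design text). Mice were 3 months old at the start and were fed ad libitum (AL), fasted for 16 h of each day (IF16) or fasted for 24 h on alternate days (EOD) over 3 months, to an age of 6 months. Further groups passed through the same 3 months and were then all fed ad libitum for 2 months, to an age of 8 months, and are written AL-R, IF16-R and EOD-R (the labels and the plots have a dot for the hyphen). The labels name no transgene or deletion in any group, and within a table the groups differ by feeding alone as far as the labels say. Each of the 6 groups had 5 libraries. The labels number the replicates without saying that each is a separate mouse, so p-values measure the spread between these libraries, which may be technical in part. The hour of collection relative to feeding is not given in the labels, and 12 samples of H3K9me3 chromatin and its input were not analysed here. The comparisons asked which carriers differ after each regimen, and whether differences remain after refeeding.

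The family moves metabolites, nucleotides, phosphate and cofactors across the inner mitochondrial membrane, which is otherwise closed to charged solutes. Each carrier is a small protein built from a repeated pair of membrane-spanning helices, and most exchange a substrate on one side for another on the opposite side. In neurons and glia these carriers supply ATP to the cytosol, run the malate-aspartate shuttle that passes reducing equivalents inward, and bring glutamate into the matrix. Fatty acid oxidation and amino acid breakdown, both known to change with fasting, also pass through members of this family.

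Total counts per library ranged from 26799825 to 36167435, of which the 47 genes held 0.321% to 0.391%. The cerebellar markers Gabra6 (granule cells) and Pcp2 (Purkinje cells) were present in every library, Gabra6 at 399 to 679 CPM. CPM here are counts scaled to library totals after TMM scaling within a table. The 11 choroid plexus markers summed to 156 to 5120 CPM, so the amount of this tissue differed widely between libraries. Libraries also differed in how levels followed gene length. This length gradient, the slope of a library's log2 CPM deviation on log2 gene length over genes outside the family, lay beyond 0.1 in size in 4 libraries, at -0.157 in AL replicate 4, -0.106 in AL replicate 5, -0.114 in IF16 replicate 1 and 0.139 in EOD replicate 4. In AL-R all gradients were below 0 (-0.0258 to -0.00354) and in IF16-R all were above 0 (0.00469 to 0.0417), so the gradient was not balanced between these groups. A fit with the gradient as a covariate therefore separates gradient from group poorly in this comparison. In bulk tissue, fewer cells of a type and less RNA per cell cannot be told apart. Of the 47 genes, 15 overlap another annotated gene, 14 of them on the opposite strand. Among those described here these are Slc25a10, Slc25a11, Slc25a12, Slc25a21, Slc25a23, Slc25a25, Slc25a26, Slc25a33, Slc25a35, Slc25a36, Slc25a37, Slc25a46 and Slc25a53. Whether counting used strand is not given in the sources used here, so their counts may include reads of the partner gene.

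The cerebellar pool of carrier transcripts was dominated by a few genes. Slc25a4, the ADP/ATP carrier of heart, muscle and brain, had the highest level, with a mean of 386 FPKM over the 30 libraries. It held 27.0% of the summed FPKM of the 47 genes. Slc25a5, a second ADP/ATP carrier, followed at 211 FPKM, and Slc25a3, the phosphate carrier that also admits copper, at 118 FPKM. FPKM are counts scaled for gene length and library total, and all comparisons of level between genes use this scale. These 3 genes, which together supply the substrates of ATP synthase and export its product, made up 49.97% of the total of the 47 genes. In single libraries their share was 47.9% to 53.3%. Family genes under other symbols are outside this total, and Mtch1 among them averaged 158 FPKM, above Slc25a3. The 10 highest genes made up 76.95%. Of the 47 genes, 23 had a mean of 10 FPKM or more, 16 lay between 1 and 10, and 8 were under 1.

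**Figure D1:**
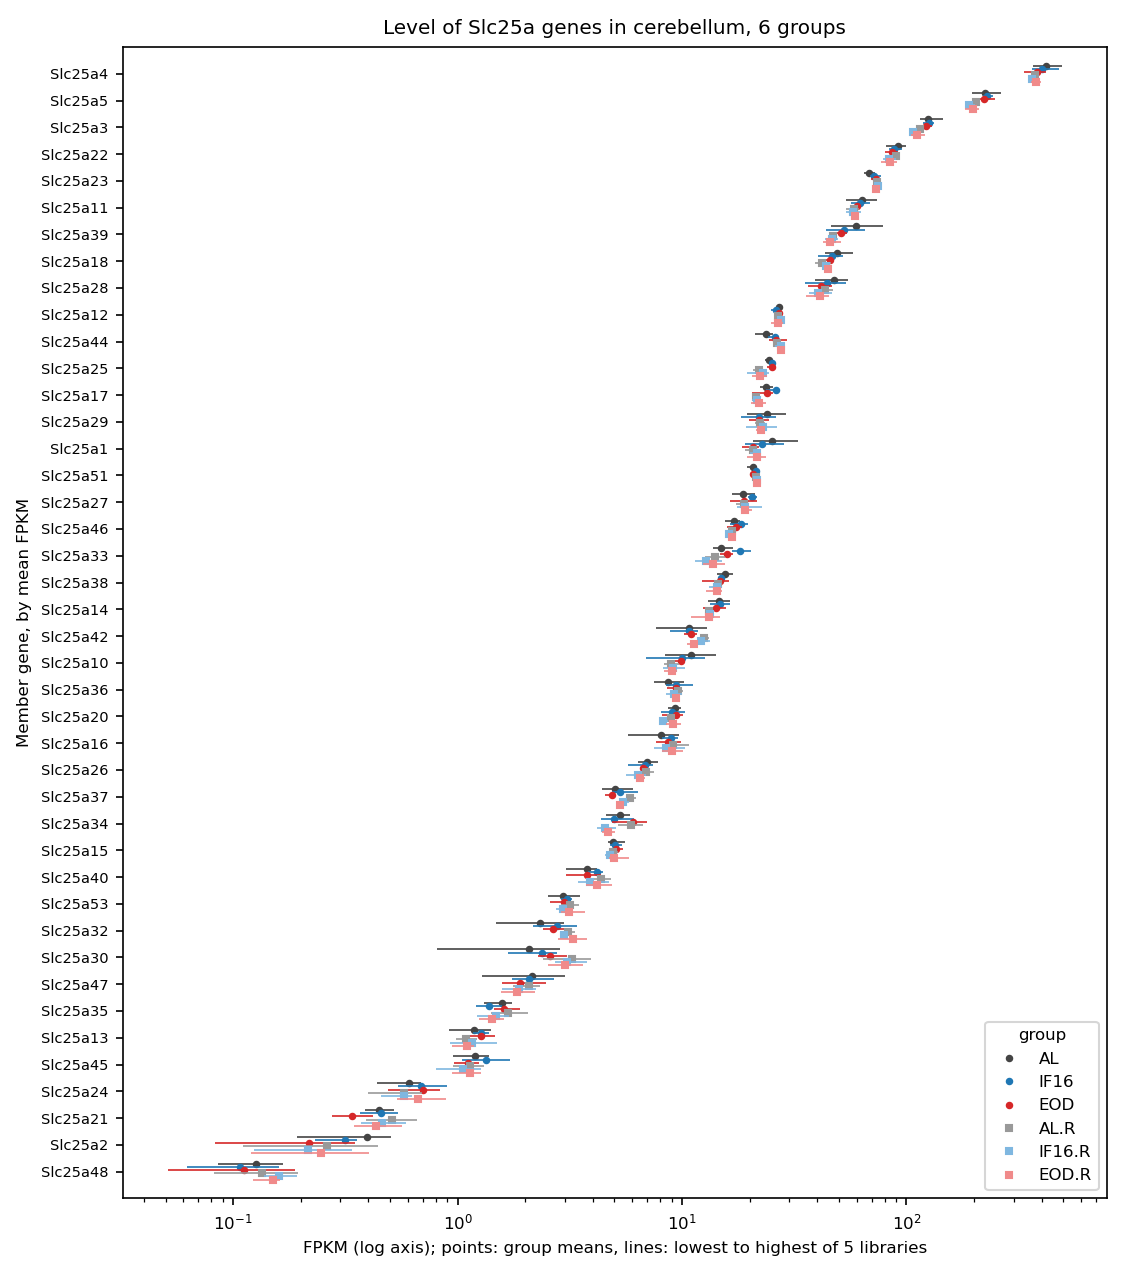
Level of 42 of the 43 Slc25a genes tested within both tables, in FPKM on a log axis, with the group mean as a point and a line from the lowest to the highest of 5 libraries. The order from Slc25a4 at 386 FPKM to Slc25a48 at 0.132 FPKM was nearly the same in the 6 groups.

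The order of levels was almost the same in all groups. The lowest Spearman correlation between the member order of any 2 groups was 0.9946, a description over 47 genes that share their libraries. Slc25a4, Slc25a5, Slc25a3, Slc25a22 and Slc25a23 stood in this order in 30 of 30 libraries, with ranges that did not overlap between neighbours. Below them, most neighbours were not separated beyond their spread. Slc25a23 exceeded Slc25a11 in 28 libraries, Slc25a11 exceeded Slc25a39 in 28, Slc25a39 exceeded Slc25a18 in 26, and Slc25a18 exceeded Slc25a28 in 20. Slc25a28 lay above Slc25a12 in 30 of 30 libraries without overlap, and Slc25a12 above Slc25a44 in 20.

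Among the adenine nucleotide and phosphate carriers, Slc25a4 (ENSMUSG00000031633, chr8:46206797-46211284, minus strand, mm10) measured 365, 372, 403, 495 and 457 FPKM in the AL libraries, 478, 413, 362, 381 and 385 in the IF16 libraries, and 381, 364, 412, 334 and 417 in the EOD libraries. After refeeding it measured 365, 369, 375, 386 and 379 FPKM in the AL-R libraries, 359, 379, 358, 357 and 355 in the IF16-R libraries, and 358, 396, 379, 374 and 379.8 in the EOD-R libraries. The spread was wider at the end of the regimens, where AL replicates 4 and 5 and IF16 replicate 1 stood above the others, than after refeeding, where all 15 libraries lay between 355 and 396 FPKM. The promoter of this gene is shown because it is the most abundant carrier. It is the run of 250 bases before the RefSeq start (GRCm38.p6, chr8:46211063-46211312, minus strand), with the ETS-type motif CCGGAAG in capitals:
Slc25a4: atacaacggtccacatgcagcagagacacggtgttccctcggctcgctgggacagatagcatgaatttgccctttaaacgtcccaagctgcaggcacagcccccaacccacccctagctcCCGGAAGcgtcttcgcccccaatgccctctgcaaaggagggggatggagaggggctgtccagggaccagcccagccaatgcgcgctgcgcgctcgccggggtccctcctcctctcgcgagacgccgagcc
The window holds 18 CpG pairs and 64.8% G or C.

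Slc25a5 on the X chromosome (chrX:36795651-36798807, plus strand) measured 214, 196, 209.7, 263 and 243 FPKM in the AL libraries, 243, 219, 232, 225 and 228 in the IF16 libraries, and 212, 221, 247, 196 and 229 in the EOD libraries at the end of the regimens. The values after refeeding were 205, 196, 203, 213 and 208 FPKM in the AL-R libraries, 183, 202, 183, 189 and 190.2 in the IF16-R libraries, and 183, 196, 211, 199 and 203 in the EOD-R libraries. Its lowest library, at 183 FPKM, still lay above the highest library of Slc25a3. Slc25a3 (chr10:91116574-91124059, minus strand) measured 116, 115, 118, 146 and 131 FPKM in the AL libraries, 133, 118, 125, 125 and 126 in the IF16 libraries, and 122, 123, 129, 114 and 125 in the EOD libraries at the end of the regimens. The values after refeeding were 115, 110.2, 116, 119.9 and 113 FPKM in the AL-R libraries, 109, 112, 105, 102 and 108 in the IF16-R libraries, and 105, 108, 121, 110.03 and 114 in the EOD-R libraries. AL replicates 4 and 5 were the highest AL libraries for both genes.

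Slc25a23, the most abundant of the calcium-regulated ATP-Mg/phosphate carriers (chr17:57043711-57059863, minus strand), measured 72.5, 68.7, 65.9, 64.9 and 68.3 FPKM in the AL libraries, 71.4, 77.03, 70.8, 69.1 and 71.6 in the IF16 libraries, and 74.5, 75.04, 72.8, 75.7 and 69.4 in the EOD libraries at the end of the regimens. After refeeding it measured 73.3, 71.5, 72.5, 75.2 and 75.4 FPKM in the AL-R libraries, 75.5, 74.3, 74.97, 75.1 and 72.2 in the IF16-R libraries, and 73.1, 73.4, 74.1, 72.6 and 71.2 in the EOD-R libraries, the tightest spread of the 5 highest genes. Its relatives lay lower, Slc25a25 at 23.6 FPKM, Slc25a24 at 0.636 and Slc25a41 at 0.178. Slc25a41 starts 2056 bases downstream of the end of Slc25a23 on the same strand. It had 0 to 16 counts per library against 6715 to 8870 for Slc25a23. Slc25a31, an ADP/ATP carrier known from testis, had 0 to 9 counts.

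Transcripts for the malate-aspartate shuttle and glutamate import were mainly those of Slc25a22, Slc25a11, Slc25a18 and Slc25a12. Slc25a22, a glutamate carrier known from neurons and astrocytes (chr7:141429739-141437892, minus strand), measured 81.1, 92.5, 88.5, 96.2 and 99.99 FPKM in the AL libraries, 91.3, 95.9, 83.4, 85.2 and 84.1 in the IF16 libraries, and 87.9, 82.6, 88.2, 80.5 and 91.6 in the EOD libraries at the end of the regimens. The values after refeeding were 90.1, 91.4, 89.9, 88.9 and 87.6 FPKM in the AL-R libraries, 89.4, 90.1, 81.9, 80.3 and 78.2 in the IF16-R libraries, and 86.3, 83.6, 90.9, 77.1 and 83.1 in the EOD-R libraries. The other glutamate carrier, Slc25a18, averaged 45.3 FPKM. Slc25a12, the aspartate/glutamate carrier of brain and muscle (aralar), averaged 26.9 FPKM, against 1.18 FPKM for Slc25a13 (citrin), the carrier known from liver. Slc25a11, the oxoglutarate/malate carrier that is the other arm of the shuttle (chr11:70644196-70647479, minus strand), measured 53.5, 58.5, 61.2, 73.96 and 68.8 FPKM in the AL libraries, 69.1, 65.1, 56.5, 61.5 and 59.4 in the IF16 libraries, and 61.2, 60.8, 61.2, 57.5 and 61.03 in the EOD libraries at the end of the regimens. After refeeding it measured 58.6, 57.8, 54.02, 61.4 and 59.3 FPKM in the AL-R libraries, 60.9, 62.8, 53.99, 56.8 and 54.3 in the IF16-R libraries, and 60.5, 61.2, 60.4, 56.3 and 56.4 in the EOD-R libraries, and the 3 groups overlapped. The citrate carrier Slc25a1 averaged 22.02 FPKM, the dicarboxylate carrier Slc25a10 9.65 and the oxodicarboxylate carrier Slc25a21 0.440.

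Carriers of amino acids and acyl groups were led by Slc25a44, a carrier of branched-chain amino acids, at a mean of 26.3 FPKM. Slc25a29, a carrier of basic amino acids, averaged 22.6 FPKM, and Slc25a38, which brings glycine into the matrix for haem synthesis, 14.7. The carnitine/acylcarnitine carrier Slc25a20, needed for fatty acid oxidation, averaged 8.99 FPKM. The ornithine carrier Slc25a15 averaged 4.96 FPKM and its intronless relative Slc25a2 0.275. Slc25a45 averaged 1.16 FPKM and Slc25a48, a choline carrier, 0.132.

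Of the 9 nucleotide and cofactor carriers, Slc25a17, the peroxisomal carrier of coenzyme A, FAD and NAD, was highest at a mean of 23.2 FPKM. It measured 39.3, 37.2, 41.6, 38.3 and 41.1 CPM in the AL libraries, 45.9, 39.2, 43.5, 44.5 and 44.8 in the IF16 libraries, and 41.5, 41.2, 42.2, 35.7 and 40.3 in the EOD libraries at the end of the regimens. The values after refeeding were 34.8, 35.1, 34.96, 36.97 and 35.9 CPM in the AL-R libraries, 36.3, 38.3, 35.8, 35.4 and 34.8 in the IF16-R libraries, and 36.5, 35.4, 39.2, 34.1 and 38.4 in the EOD-R libraries. Slc25a51, the mitochondrial NAD carrier, followed at 21.2 FPKM, with a range of only 19.5 to 22.5 over the 30 libraries. The pyrimidine nucleotide carriers Slc25a33 and Slc25a36 averaged 14.9 and 9.27 FPKM, the coenzyme A carrier Slc25a42 11.4, Slc25a16 8.69, the S-adenosylmethionine carrier Slc25a26 6.72 and the folate carrier Slc25a32 2.86. Among iron and glutathione carriers, Slc25a39, which imports glutathione, averaged 50.5 FPKM and its relative Slc25a40 4.02. Mitoferrin-2 (Slc25a28) averaged 43.0 FPKM and mitoferrin-1 (Slc25a37), the iron importer of developing red cells, 5.31.

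The uncoupling protein-like carriers were led by Slc25a27 (UCP4), at a mean of 19.2 FPKM, ahead of Slc25a14 (UCP5) at 13.9 and Slc25a30 at 2.72. Slc25a27 (chr17:43641900-43667015, minus strand) measured 55.4, 52.2, 48.4, 46.2 and 48.5 CPM in the AL libraries, 54.5, 52.97, 56.2, 52.4 and 56.6 in the IF16 libraries, and 57.2, 50.3, 49.3, 45.9 and 53.1 in the EOD libraries at the end of the regimens. The values after refeeding were 52.3, 50.4, 50.8, 50.7 and 47.3 CPM in the AL-R libraries, 60.2, 51.3, 47.7, 49.2 and 50.9 in the IF16-R libraries, and 54.8, 48.6, 51.9, 49.6 and 52.03 in the EOD-R libraries. IF16-R replicate 1 stood above the other refed libraries. Among members of less certain substrate, Slc25a46, an outer membrane protein linked to optic atrophy and cerebellar degeneration, was highest at a mean of 17.0 FPKM. It measured 70.9, 67.5, 78.3, 80.8 and 74.7 CPM in the AL libraries, 79.7, 71.7, 83.8, 79.7 and 82.5 in the IF16 libraries, and 74.9, 77.6, 80.05, 72.1 and 76.3 in the EOD libraries at the end of the regimens. The values after refeeding were 74.6, 70.9, 72.8, 73.9 and 72.6 CPM in the AL-R libraries, 67.97, 75.3, 70.98, 69.5 and 71.4 in the IF16-R libraries, and 71.3, 74.2, 72.9, 73.2 and 72.9 in the EOD-R libraries, with overlap between all groups of a table. Slc25a34 averaged 5.25 FPKM, Slc25a53 3.04, Slc25a47, known from liver, 1.99 and Slc25a35 1.53. Slc25a43 had 0 to 10 counts per library and Slc25a54 0 to 2, so both were at or near the limit of detection at this depth.

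The balance between related carriers was measured within each library. The median ratio of FPKM over the 30 libraries was 1.87 for Slc25a4 over Slc25a5, 1.90 for Slc25a22 over Slc25a18, 7.85 for Slc25a28 over Slc25a37, 12.2 for Slc25a39 over Slc25a40, 22.6 for Slc25a12 over Slc25a13 and 0.636 for Slc25a36 over Slc25a33. These ratios are descriptions and were not tested. Slc25a23 over Slc25a25 had mean log2 ratios of 1.48 ± 0.063 for AL, 1.52 ± 0.080 for IF16 and 1.54 ± 0.064 for EOD (SD, n = 5). The values for AL-R, IF16-R and EOD-R were 1.75 ± 0.050, 1.71 ± 0.14 and 1.72 ± 0.098. The mean ratio of this pair was higher in the 3 older groups than in the 3 younger ones, and age and table cannot be told apart. It was not the only such pair. The group means of Slc25a36 over Slc25a33 and Slc25a12 over Slc25a13 were also higher in the older groups. Those of Slc25a28 over Slc25a37 and Slc25a39 over Slc25a40 were lower.

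**Figure D2:**
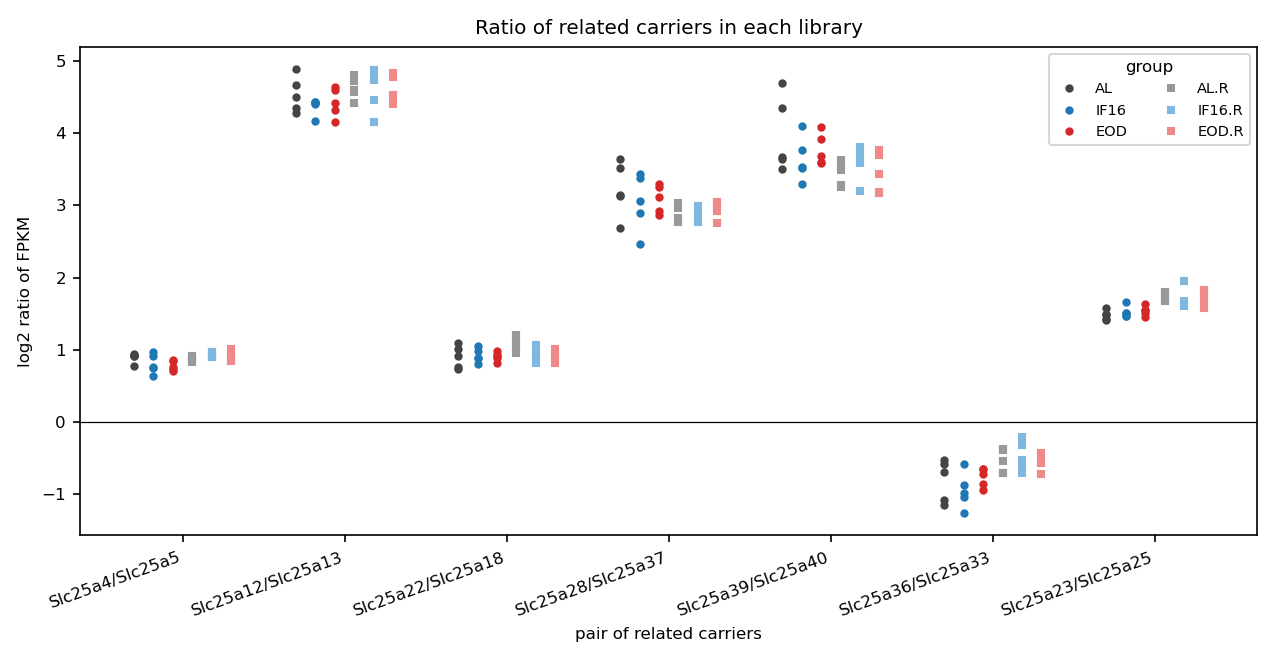
Log2 ratio of FPKM between 7 pairs of related carriers, with a point for each of the 30 libraries, coloured by group. The Slc25a12/Slc25a13 points lie above 4, and the Slc25a36/Slc25a33 points lie below 0 in all libraries.

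At the end of the regimens no Slc25a gene passed the test in either regimen. Of 47 genes, 43 had enough counts to be tested in the regimen table, and Slc25a31, Slc25a41, Slc25a43 and Slc25a54 did not. At an adjusted p under 0.05 (edgeR's quasi-likelihood test, Benjamini-Hochberg over all genes tested), 0 of 43 members were called in IF16 against AL, beside 0.0483% of all genes tested. In EOD against AL 0 of 43 were called, beside 0.0664% of all genes, and in EOD against IF16 0 of 43, beside 0% of all genes. DESeq2 also called 0 members in these 3 comparisons. At an unadjusted p under 0.05 there were 3 members in IF16 against AL, where 9.92% of all genes were, 4 in EOD against AL, where 14.4% were, and 3 in EOD against IF16, where 3.62% were. The members' share was 6.98%, 9.30% and 6.98%. Both regimens were compared with the same AL libraries. The median log2 fold change of the 43 members was 0.01 in IF16 and 0.01 in EOD, beside -0.01 and -0.02 over all genes tested. The median size of a member's change was 0.09 on the log2 scale in each, and its median standard error was 0.09 too.

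**Figure D3:**
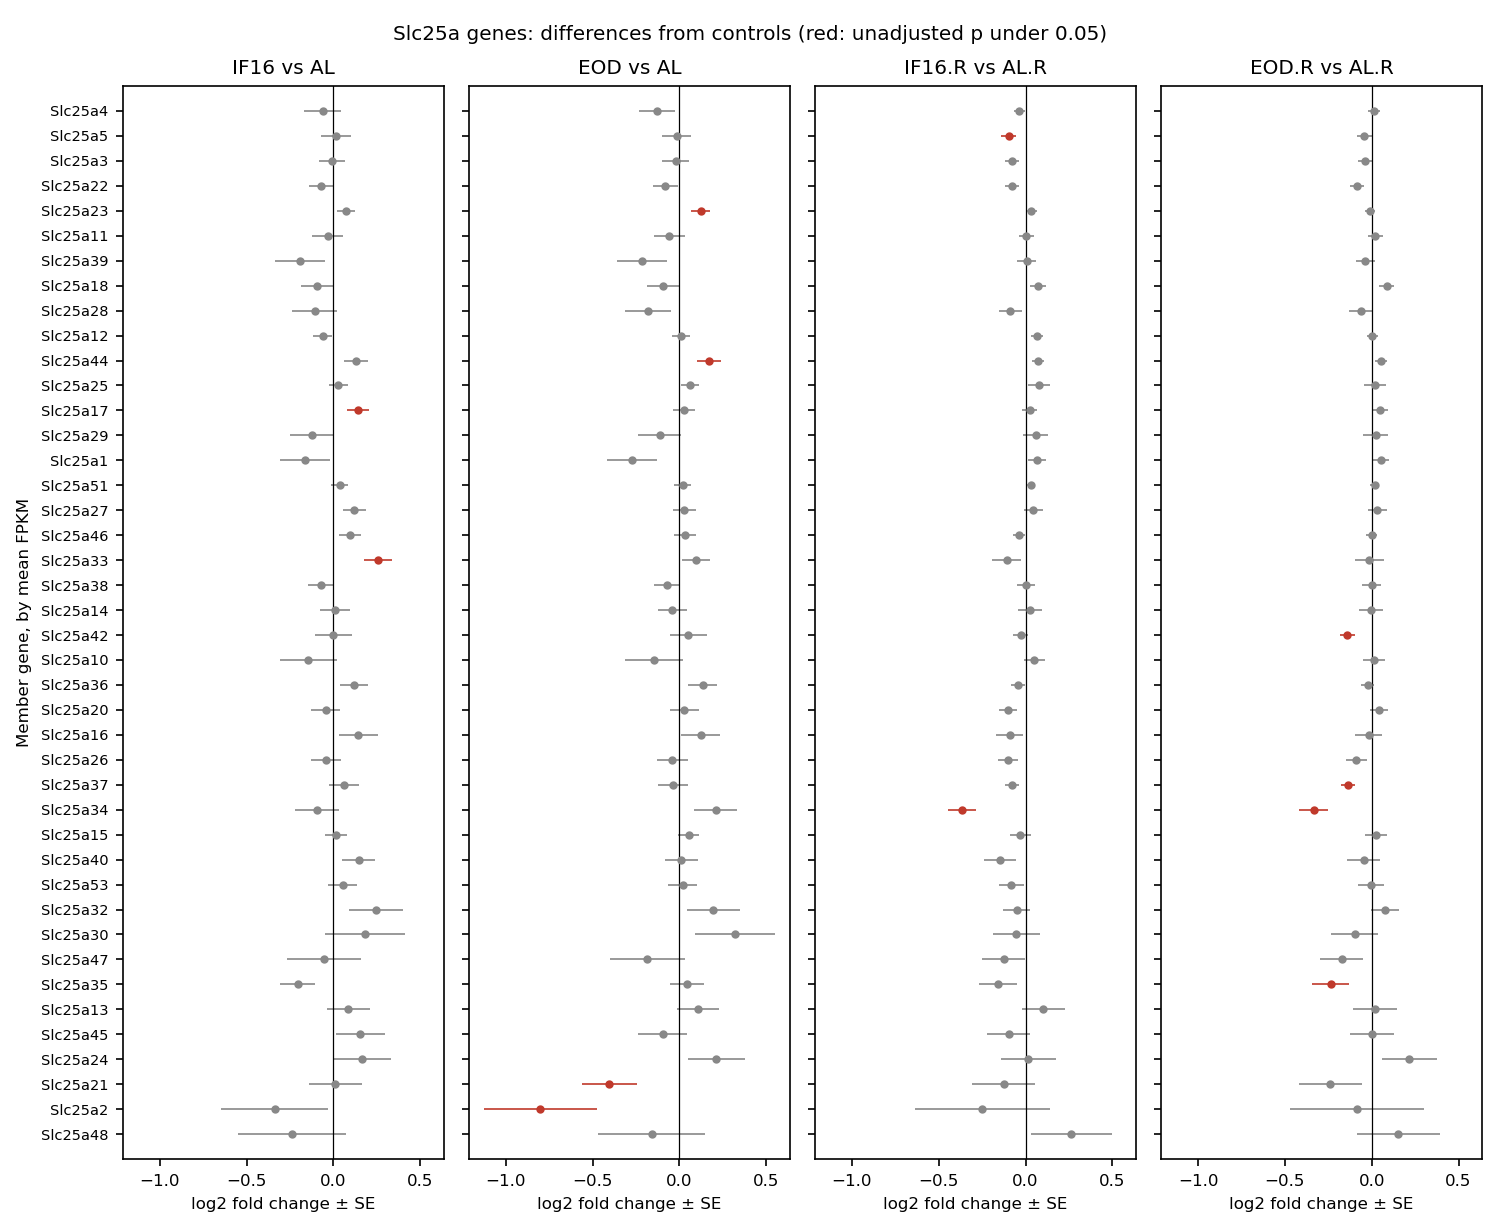
Log2 fold change ± standard error of 42 of the 43 tested Slc25a genes in 4 comparisons with ad libitum controls, ordered by level, with red points at an unadjusted p under 0.05. Most points lie within 0.2 of 0, and those of IF16-R and EOD-R have mostly shorter error bars than those of IF16 and EOD.

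Slc25a33, which carries pyrimidine nucleotides into the matrix (chr4:149744036-149774277, minus strand), had the smallest p in IF16 against AL. It measured 27.1, 25.7, 25.4, 30.9 and 32.4 CPM in the AL libraries, 38.3, 32.1, 30.6, 35.2 and 33.1 in the IF16 libraries, and 28.7, 30.1, 31.8, 29.1 and 31.3 in the EOD libraries. All IF16 libraries lay above AL replicates 1 to 3, the other AL libraries overlapped with IF16, and the EOD libraries overlapped with both. The log2 fold change was 0.26 ± 0.081 (SE, n = 5 per group) with an unadjusted p of 0.00554 and an adjusted p of 0.345. The 2 highest AL libraries, replicates 4 and 5, and the highest IF16 library, replicate 1, were those with the steepest negative length gradients. With the gradient as a covariate the log2 fold change was 0.31 ± 0.057 and the adjusted p 0.0300, so that the gene was called, beside 0.374% of all genes tested in that fit. Its promoter is shown for this reason (GRCm38.p6, chr4:149774268-149774517, minus strand, 250 bases before the RefSeq start), with the E-box CACGTG in capitals:
Slc25a33: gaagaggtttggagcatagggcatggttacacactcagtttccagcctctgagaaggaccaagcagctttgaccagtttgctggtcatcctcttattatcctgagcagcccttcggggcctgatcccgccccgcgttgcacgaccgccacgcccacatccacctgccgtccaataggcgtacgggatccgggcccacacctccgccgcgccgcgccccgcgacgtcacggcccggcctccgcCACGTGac
The window holds 23 CpG pairs and 64.4% G or C.

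Slc25a17, the peroxisomal cofactor carrier, was also at an unadjusted p under 0.05 in IF16 against AL. Its IF16 libraries overlapped with those of AL, with a log2 fold change of 0.14 ± 0.063. The nucleotide and cofactor carriers as a list had a median of 0.12 in IF16, with 6 of 9 above 0 and 0 called.

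In EOD the smallest p was that of Slc25a21, the oxodicarboxylate carrier of lysine and tryptophan breakdown (chr12:56712634-57197472, minus strand). It measured 1.33, 1.02, 1.14, 1.33 and 1.02 CPM in the AL libraries, 1.41, 1.22, 1.11, 1.20 and 0.962 in the IF16 libraries, and 0.884, 1.10, 0.826, 0.748 and 0.867 in the EOD libraries. The EOD libraries were low, from 24 to 33 counts each, and overlapped with both other groups. The log2 fold change was -0.40 ± 0.16 against AL (adjusted p = 0.320) and -0.42 ± 0.16 against IF16 (adjusted p = 0.977). All 4 carboxylate carriers were below 0 in EOD against AL, with a median of -0.21, and 0 were called. Slc25a1 among them was at -0.27 ± 0.14 and Slc25a10 at -0.15 ± 0.165. In both genes the highest AL libraries were replicates 4 and 5, and with the length gradient as a covariate the values were -0.01 and 0.12.

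Slc25a44, the branched-chain amino acid carrier (chr3:88410498-88425139, minus strand), measured 85.9, 86.4, 90.04, 77.9 and 82.1 CPM in the AL libraries, 86.5, 96.2, 87.4, 95.2 and 96.7 in the IF16 libraries, and 90.2, 91.6, 94.5, 110.1 and 88.3 in the EOD libraries. The highest value was EOD replicate 4, and of the EOD libraries only replicate 5 lay within the range of AL. The log2 fold change in EOD was 0.17 ± 0.068 (adjusted p = 0.325). Without the 4 libraries of steep gradient, EOD replicate 4 among them, it was 0.06 (adjusted p = 0.892), an alternative chosen after seeing the data. Slc25a23 was at 0.12 ± 0.054 and Slc25a2 at -0.80 ± 0.33, the latter on 3 to 23 counts per library. Between the 2 regimens, Slc25a35 measured 5.81, 5.76, 6.25, 4.94 and 5.95 CPM in the AL libraries, 5.20, 4.38, 5.62, 4.94 and 4.75 in the IF16 libraries, and 6.82, 5.58, 5.997, 5.87 and 5.34 in the EOD libraries, with EOD over IF16 by 0.25 ± 0.099 on the log2 scale (adjusted p = 0.977).

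After 2 months of refeeding Slc25a34 had the smallest p of the family in both comparisons with AL-R, and in the edgeR fit by group alone no member was called. Of 43 members tested in the refeeding table, 0 were called in IF16-R against AL-R, beside 0.17% of all genes tested. In EOD-R against AL-R 0 were called, beside 0.0426% of all genes, and in EOD-R against IF16-R 0, beside 0.0182%. At an unadjusted p under 0.05 there were 2 members in IF16-R, where 9.58% of all genes were, 4 in EOD-R, where 8.5% were, and 2 in EOD-R against IF16-R, where 9.75% were. DESeq2 called 1 member, Slc25a34, in each comparison with AL-R and 0 between the refed regimens. IF16-R and EOD-R were compared with the same AL-R libraries. The member median was -0.04 in IF16-R and -0.0012 in EOD-R on the log2 scale, and the IF16-R median was 0.01 with the length gradient as a covariate.

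Slc25a34, a carrier whose substrate is not settled (ENSMUSG00000040740, chr4:141618824-141623821, minus strand), measured 17.6, 13.7, 14.4, 15.2 and 17.9 CPM in the AL-R libraries, 11.01, 11.9, 11.7, 12.8 and 13.9 in the IF16-R libraries, and 11.8, 13.3, 11.7, 12.5 and 13.1 in the EOD-R libraries. All EOD-R libraries lay below all AL-R libraries, and of the IF16-R libraries only replicate 5 lay above the lowest AL-R library. The share of all genes without overlap between groups was not counted, here and for the genes that follow. The log2 fold change was -0.36 ± 0.081 in IF16-R (SE, n = 5 per group, adjusted p = 0.0877) and -0.34 ± 0.081 in EOD-R (adjusted p = 0.171) with edgeR. With DESeq2 the adjusted p was 0.00720 and 0.0214. With the length gradient as a covariate the values were -0.36 ± 0.13 in IF16-R (adjusted p = 0.9996) and -0.33 ± 0.083 in EOD-R (adjusted p = 0.187). In IF16-R the log2 fold change thus barely moved, while its standard error was wider. At the end of the regimens the gene measured 13.4, 12.1, 14.6, 16.1 and 14.6 CPM in the AL libraries, 11.7, 12.4, 11.8, 16.2 and 14.2 in the IF16 libraries, and 12.9, 13.6, 17.4, 19.5 and 18.2 in the EOD libraries, with EOD replicates 3 to 5 above all other libraries and full overlap between the rest. Its log2 fold change was 0.30 ± 0.13 in EOD against IF16 (adjusted p = 0.977).

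The neighbouring gene Tmem82, chosen after the values of Slc25a34 were seen, showed the same order after refeeding. Tmem82 (chr4:141613376-141618633) lies on the same strand and starts 190 bases downstream of the end of Slc25a34. It measured 1.88, 1.73, 1.76, 1.58 and 1.44 CPM in the AL-R libraries, 0.686, 0.774, 0.923, 0.811 and 0.992 in the IF16-R libraries, and 1.19, 1.01, 1.03, 0.717 and 0.978 in the EOD-R libraries, and neither refed regimen overlapped with AL-R. Tmem82 fell by 1.002 ± 0.16 on the log2 scale in IF16-R (adjusted p = 0.0208), and its log2 fold change was -0.77 ± 0.15 in EOD-R (adjusted p = 0.0981). With the length gradient as a covariate 0 of 16444 genes were called in IF16-R against AL-R, so the call of Tmem82 was lost. The gradients of these groups did not overlap, so this fit separates gradient from group poorly. When single libraries were left out, 0 to 65 genes in all were called in that comparison. Reads of a Slc25a34 transcript that runs on past its annotated end cannot be told apart from reads of Tmem82 in these counts. At the end of the regimens Tmem82 ranged from 0.367 to 2.12 CPM in EOD and the groups overlapped.

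The promoter of Slc25a34 is shown because this gene had the smallest p of the family after refeeding. It is the run of 250 bases before the RefSeq start (GRCm38.p6, chr4:141623835-141624084, minus strand), with no searched motif and so no capitals:
Slc25a34: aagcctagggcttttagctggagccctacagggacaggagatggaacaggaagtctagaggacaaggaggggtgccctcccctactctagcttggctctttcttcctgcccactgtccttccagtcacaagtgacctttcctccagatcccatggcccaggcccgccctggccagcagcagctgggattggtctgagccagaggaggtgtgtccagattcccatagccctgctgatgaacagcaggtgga
The window holds 1 CpG pair and 58.4% G or C, against 18 and 23 CpG pairs in the windows of Slc25a4 and Slc25a33.

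**Figure D4:**
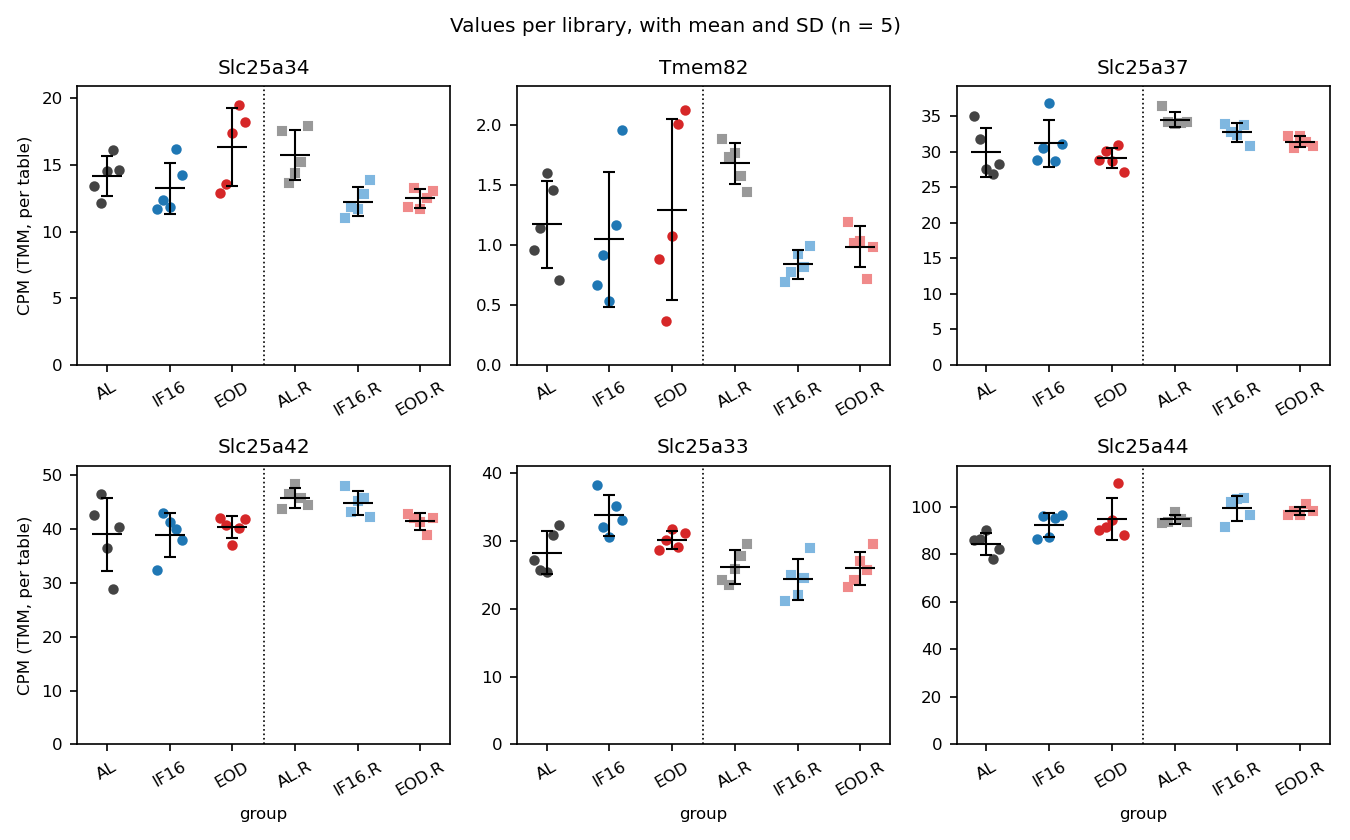
CPM of Slc25a34, its neighbour Tmem82, Slc25a37, Slc25a42, Slc25a33 and Slc25a44 in each library, with the mean and SD of 5 libraries per group and a dotted line between the 2 tables, which were scaled separately. In Slc25a34, Tmem82, Slc25a37 and Slc25a42 the EOD-R libraries all lie below the AL-R libraries.

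Slc25a37, mitoferrin-1 (chr14:69241848-69285112, minus strand), measured 36.4, 34.1, 33.9, 34.02 and 34.2 CPM in the AL-R libraries, 33.9, 32.8, 32.3, 33.8 and 30.7 in the IF16-R libraries, and 32.2, 30.5, 32.3, 31.3 and 30.8 in the EOD-R libraries. All EOD-R libraries lay below all AL-R libraries, and AL-R replicate 1 stood above the other AL-R libraries. The log2 fold change in EOD-R was -0.14 ± 0.040 (adjusted p = 0.304). Markers of red blood cells, in whose precursors this gene is active, were also lower in EOD-R, with 5 of 5 at an unadjusted p under 0.05, a median log2 fold change of -1.61 and 0 called. Their summed level was 8.68 to 114 CPM in AL-R and 14.9 to 25.7 CPM in EOD-R. AL-R replicate 1, the highest library for Slc25a37, had the lowest summed level of these markers in its group, 8.68 CPM. Their part in the difference was not tested.

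Slc25a42, which carries coenzyme A and adenine nucleotides (chr8:70184340-70212305, minus strand), measured 43.7, 46.4, 48.3, 45.9 and 44.5 CPM in the AL-R libraries, 47.95, 43.3, 45.2, 45.8 and 42.3 in the IF16-R libraries, and 42.9, 42.1, 41.4, 38.9 and 42.1 in the EOD-R libraries. The EOD-R libraries lay below all AL-R libraries and overlapped with IF16-R. The log2 fold change was -0.14 ± 0.043 against AL-R (adjusted p = 0.334) and -0.11 ± 0.043 against IF16-R (adjusted p = 0.369). Slc25a35 was the remaining member of EOD-R at an unadjusted p under 0.05, at -0.24 ± 0.11. In IF16-R the other such member was Slc25a5, which measured 249.99, 239, 251, 265 and 261 CPM in the AL-R libraries, 223, 251, 230.2, 238 and 241 in the IF16-R libraries, and 225, 240.5, 260.4, 249 and 253 in the EOD-R libraries. Its log2 fold change was -0.10 ± 0.043 (adjusted p = 0.487), the groups overlapped, and it was -0.02 with the length gradient as a covariate.

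The carnitine/acylcarnitine carrier Slc25a20 (chr9:108662098-108684641, plus strand) had the smallest p between the refed regimens. It measured 15.7, 16.3, 15.7, 15.05 and 16.3 CPM in the AL-R libraries, 15.2, 14.1, 15.1, 14.6 and 14.6 in the IF16-R libraries, and 15.04, 16.6, 17.6, 16.7 and 15.6 in the EOD-R libraries. EOD-R exceeded IF16-R by 0.15 ± 0.053 on the log2 scale (adjusted p = 0.354), and the groups overlapped. The adenine nucleotide and phosphate carriers had medians of -0.01 in IF16-R and 0.00 in EOD-R, the aspartate and glutamate carriers 0.07 and 0.01, and the carboxylate carriers 0.03 and 0.02. All 5 tested members of less certain substrate were below 0 in both comparisons with AL-R, with medians of -0.13 and -0.17 and 0 called. With the length gradient as a covariate this common direction was lost, with Slc25a47 at 0.15 and Slc25a53 at 0.04 in IF16-R, and Slc25a46 and Slc25a53 above 0 in EOD-R.

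Whether a regimen's difference from its controls itself changed with refeeding was tested as an interaction over all 30 libraries, where 44 members could be tested. For IF16, 0 of 44 members were called, beside 0.0474% of all genes, and 4 were at an unadjusted p under 0.05, where 7.21% of all genes were. For EOD, 0 of 44 were called, beside 0.0119%, and 3 were at an unadjusted p under 0.05, where 10.3% were. DESeq2 called 0 members in both. Slc25a33 had the smallest p for IF16, with an interaction of -0.36 ± 0.12 on the log2 scale (adjusted p = 0.485). After refeeding it measured 24.3, 23.6, 25.96, 27.8 and 29.6 CPM in the AL-R libraries, 21.2, 24.96, 22.1, 24.6 and 28.9 in the IF16-R libraries, and 23.3, 24.3, 27.04, 25.7 and 29.6 in the EOD-R libraries, and the IF16-R libraries did not lie above the others. For EOD the smallest p was that of Slc25a34, at -0.55 ± 0.15 (adjusted p = 0.294), and then Slc25a23, at -0.13 ± 0.055 (adjusted p = 0.466).

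The ad libitum controls of the 2 tables differed in far more genes than any regimen and its controls, with 4030 genes called against at most 28. In AL-R against AL, 10 of 44 members were called, 5 higher and 5 lower, which is 22.7% beside 23.9% of all genes tested. At an unadjusted p under 0.05 there were 17 members, 38.6%, where 40% of all genes were. The members' share was thus near that of all genes. AL-R mice were 2 months older, and the libraries come from a separate table, so age and table cannot be told apart. Slc25a30, Slc25a32, Slc25a42, Slc25a37 and Slc25a44 rose, by log2 fold changes of 0.63, 0.41, 0.22, 0.20 and 0.16. Among the lower members, Slc25a39, Slc25a18, Slc25a25 and Slc25a17 fell by 0.36, 0.24, 0.16 and 0.16 on the log2 scale.

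Slc25a39, the glutathione importer (chr11:102402985-102407946, minus strand), measured 76.7, 86.1, 87.4, 136 and 119 CPM in the AL libraries, and 77.7, 76.7, 77.4, 82.7 and 79.5 in the AL-R libraries in the joint scaling of both tables. AL replicates 4 and 5 were above the other AL and all AL-R libraries, and the remaining AL libraries were closer to AL-R. The log2 fold change was -0.36 ± 0.11 (adjusted p = 0.0232). Slc25a18, a glutamate carrier (chr6:120773768-120793982, plus strand), measured 64.2, 58.7, 59.6, 81.2 and 73.4 CPM in the AL libraries, and 53.01, 57.6, 53.2, 62.7 and 59.4 in the AL-R libraries, again with AL replicates 4 and 5 highest, and its log2 fold change was -0.24 ± 0.071 (adjusted p = 0.0209).

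Slc25a30, an uncoupling protein-like carrier (chr14:75761999-75787037, minus strand), measured 4.45, 3.99, 4.84, 1.42 and 3.02 CPM in the AL libraries, and 6.41, 6.64, 4.59, 4.08 and 5.68 in the AL-R libraries. AL replicate 4 was lowest and AL replicate 5 next, and the groups overlapped. The log2 fold change was 0.63 ± 0.20 (adjusted p = 0.0255). Slc25a32, the folate carrier (chr15:39094191-39112716, minus strand), measured 8.66, 7.89, 7.499, 4.50 and 5.86 CPM in the AL libraries, and 9.22, 9.67, 8.60, 8.58 and 9.57 in the AL-R libraries with the same 2 libraries lowest, at 0.41 ± 0.13 (adjusted p = 0.0230).

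The AL and AL-R libraries did not overlap in Slc25a25, Slc25a17 and Slc25a44, all among the called members. The share of all genes without overlap was not counted, and 23.9% of all genes tested were called in this comparison. Their mean levels in AL and AL-R were 86.3 and 76.96 CPM for Slc25a25, 39.6 and 35.5 for Slc25a17, and 84.6 and 94.5 for Slc25a44.

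These calls rested on few libraries. Without AL replicate 4, 1 member and 830 genes in all were called, and without AL replicate 5, 0 members and 1250 genes. Without AL-R replicate 1, 2 or 3 the members called were 4, 2 and 4, and without AL replicate 1 they were 17. With the length gradient as a covariate 0 members were called, beside 1.32% of all genes, and Slc25a39 was at -0.05 and Slc25a30 at 0.28 on the log2 scale. Without the 4 libraries of steep gradient 0 members and 405 genes were called. Markers of several cell types were called in the same comparison too, where 23.9% of all genes tested were. Of the red blood cell markers 3 of 5 rose, with a median of 1.18, beside the rise of Slc25a37. Of the granule cell markers 3 of 7 rose and of the Purkinje cell markers 2 of 7. Of the oligodendrocyte markers 3 of 6 fell, as did 2 of 6 microglia markers and 1 of 7 astrocyte markers. Of the endothelium markers 1 of 6 fell, although the median of that list was 0.13. Of the choroid plexus markers 0 of 11 were called, with a median of -1.37. With the choroid plexus mean as a covariate 1 member was called. The part of these cell types in the carrier changes was not tested.

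**Figure D5:**
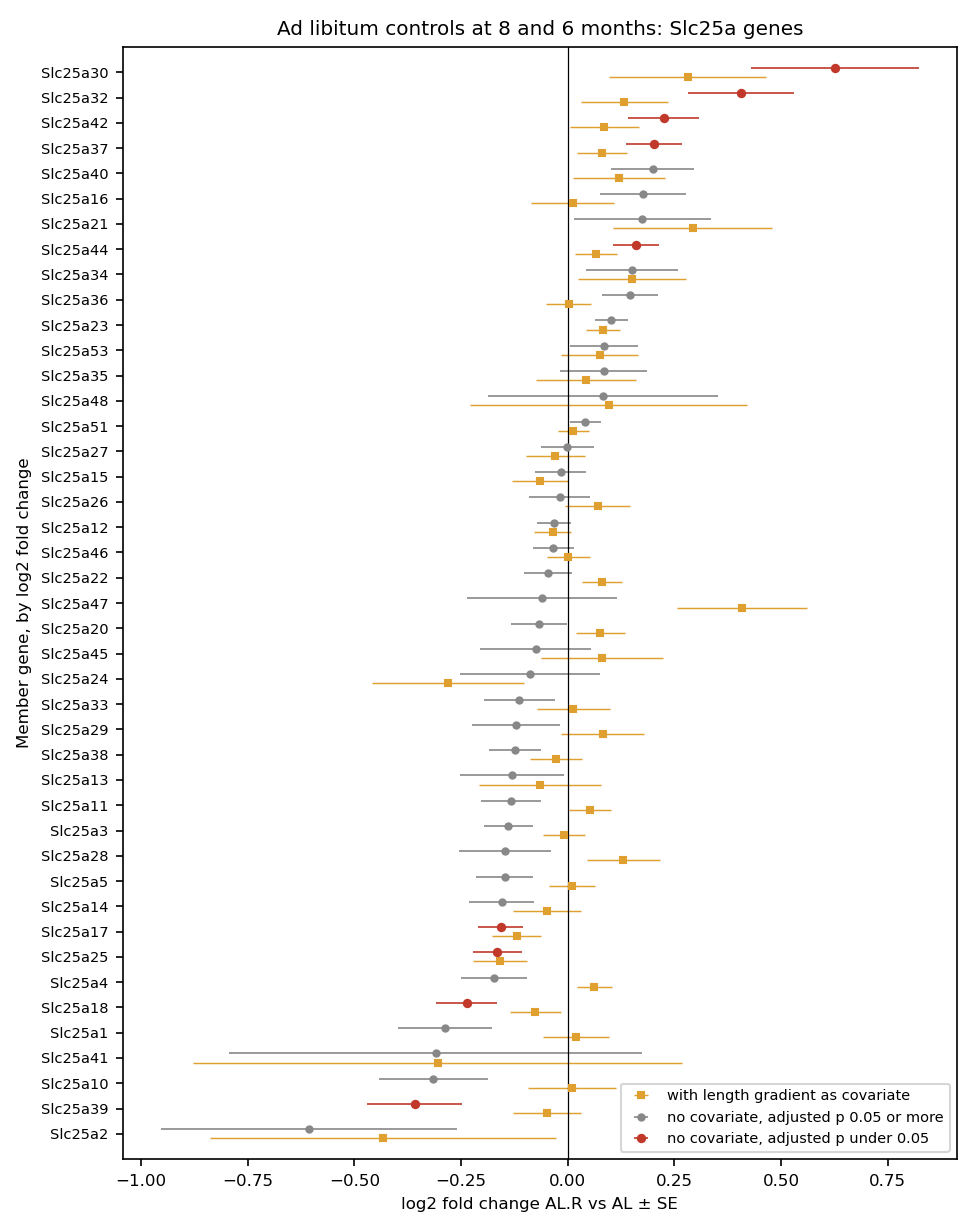
Log2 fold change ± standard error of 43 of the 44 tested Slc25a genes in AL-R against AL, without a covariate (grey, or red where the adjusted p was under 0.05) and with the length gradient of each library as a covariate (yellow squares). The largest changes, such as Slc25a39 and Slc25a30, lie closer to 0 with the covariate.

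The spread of carrier levels between libraries was narrower in the groups of 8 months than in those of 6 months of age. Age and table cannot be told apart here. The 4 libraries of steep length gradient are all of 6 months, and their part in the spread was not tested. The median coefficient of variation of members with at least 1 CPM was 11.2% for AL libraries, 8.90% for IF16 and 7.02% for EOD, and later 4.83% for AL-R, 5.77% for IF16-R and 5.72% for EOD-R. Over all genes at that level it was 13.2%, 11.6%, 9.08%, 5.91%, 7.02% and 6.84%. The median of the members was the lower one in each of the 6 groups, and no test was made of this. Members and all genes were not matched for level. In AL the most variable member was Slc25a30, at 38.2%, and in IF16 it was the dicarboxylate carrier Slc25a10, at 25.5%.

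Other genes of mitochondrial transport were not called between regimens either. The family genes under other symbols (Ucp1, Ucp2, Ucp3, Mtch1 and Mtch2), 20 further genes of inner membrane transport such as pyruvate, calcium and sideroflexin carriers, and 29 partner enzymes had 0 genes called in the 6 comparisons between regimens and in both interactions. At an unadjusted p under 0.05 the partner enzymes had 0 of 29 in IF16 against AL, 4 in EOD against AL, 1 in IF16-R and 3 in EOD-R. The shares of all genes tested were, in the same order, 9.92%, 14.4%, 9.58% and 8.5%. The highest levels were those of Mtch1 (158 FPKM), Smdt1, a subunit of the calcium uniporter (171 FPKM), and Mdh1, the cytosolic malate dehydrogenase of the shuttle (266 FPKM). In AL-R against AL 23.9% of all genes tested were called, and 1.32% with the length gradient as a covariate. Without the covariate 2 of the 5 family genes and 5 of the 20 transport genes were called, all lower. Of the 29 partner enzymes 1 was called higher and 4 lower. Mtch1 fell by 0.36 and Mtch2 by 0.15 on the log2 scale, Smdt1 fell by 0.48, Slc8b1 by 0.29, Micu2 by 0.21, Sfxn4 by 0.25 and Ccdc109b by 0.63. Of the partner enzymes in that comparison Mdh2 fell by 0.32, Cpt1c by 0.31, Cpt2 by 0.29 and Idh1 by 0.16, and Gpd2, of the glycerol phosphate shuttle, rose by 0.25.

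RefSeq promoter windows of 300 bases, 250 before to 50 after a start, were found for 36 of the 47 genes, in 46 windows. Searched on both strands, the E-box CACGTG was in 8 of these 46 windows, 17.4%, and in 7.15% of all 32851 windows. The ETS-type motif CCGGAAG was in 7 windows, 15.2% against 8.86%. The CRE TGACGTCA was in 2 windows, 4.35% against 1.79%, in Slc25a25 and Slc25a36. The E-box genes were Slc25a1, Slc25a13, Slc25a14, Slc25a15, Slc25a31, Slc25a33 and Slc25a36, and the ETS genes were Slc25a3, Slc25a4, Slc25a17, Slc25a20, Slc25a25, Slc25a38 and Slc25a54. The ERR motif TCAAGGTCA and the FOXO motif GTAAACA were in 0 member windows, against 0.423% and 3.65% of all windows. These matches are descriptions of the letters in these windows.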

How the data were processed

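RNA-seq of total RNA from flash-frozen cerebellum was deposited as 2 tables of counts per gene, one for the regimens and one for refeeding. Per the submitters' processing notes the authors aligned reads to mm10 with STAR 2.5 and counted them with HTSeq 0.6.1. The FPKM tables deposited by the authors equal the counts over gene length and over the library total, as checked on the files. Strand setting, annotation release and read filters are not given in the sources used here. Counts were tested with edgeR 4.0.16 in R 4.3.3 (TMM scaling, filterByExpr by group, quasi-likelihood test, Benjamini-Hochberg over all genes), over 16577 genes for the regimens, 16444 for refeeding and 16877 in a joint fit of both tables. The threshold was an adjusted p of 0.05. The tests were checked on simulated data. DESeq2 1.42.0, no low-count filter, covariates for length gradient and choroid plexus, a replicate block and leaving out libraries were alternatives. Samples were grouped by treatment label. Total counts of 26799825 to 36167435 per library limit genes with few counts, such as Slc25a54. No libraries were duplicates: in 60 pairs within groups the chi-square per degree of freedom was at least 4.24. The members named with values in every library were the 6 of highest level, the highest of each role, the 2 with the smallest p in each comparison, and, for the ad libitum controls, the 2 highest and 2 lowest changes among called members; 1 gene that met this rule is not reported here. The members and lists were chosen with earlier results of these data known.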

Additional observations from a re-analysis of the deposited data

Results flagged for a closer look

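Among 132 groups of 5 libraries, from 22 members examined by library, 4 held a library whose gap to the nearest other exceeded 0.71 of the group's range, the 95% limit of Dixon's test. Chance gives about 1 in 20 groups. Slc25a27, the uncoupling protein-like carrier UCP4, was at 60.2 CPM in IF16-R replicate 1 against 47.7 to 51.3 CPM in the other IF16-R libraries. Slc25a32, the folate carrier, was at 9.35 CPM in EOD replicate 2 against 7.36 to 7.63 CPM in the others. Slc25a37, mitoferrin-1, was at 36.4 CPM in AL-R replicate 1 against 33.9 to 34.2 CPM. Slc25a44, the branched-chain amino acid carrier, was at 110.0 CPM in EOD replicate 4, a library of steep length gradient, against 88.3 to 94.5 CPM.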

How the results depend on the processing

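With the length gradient as a covariate some values that were not called changed sign, among them Slc25a10 (-0.15 to 0.12) and Slc25a11 (-0.06 to 0.09) in EOD and the member medians given next. With DESeq2, 1 member (Slc25a34) was called in IF16-R and 1 in EOD-R against AL-R, and with the replicate number as a block 1 (Slc25a34, adjusted p = 0.0245 with edgeR) in IF16-R. With the length gradient as a covariate 1 member (Slc25a33) was called in IF16, the IF16-R median became 0.0143, and for AL-R against AL 0 members were called with a median of 0.0163. For that comparison the count was 5 without a low-count filter, 1 with a choroid plexus covariate, 0 to 17 when single libraries were left out, and 0, with a median of 0.0011, without the 4 libraries of steep gradient, an alternative chosen after seeing the data. By CPM, not per length, Slc25a4 made up 21.6% of the family. Counts over all genes moved more. In the order IF16, EOD, EOD against IF16, IF16-R, EOD-R, EOD-R against IF16-R and both interactions, edgeR called 8, 11, 0, 28, 7, 3, 8 and 2 genes and DESeq2 96, 128, 1, 103, 79, 121, 27 and 14. The replicate block gave 5, 4, 0, 95, 45, 40, 10 and 13, and the gradient covariate 62, 7, 1, 0, 0, 0, 36 and 6. The choroid plexus covariate gave 3, 19, 0, 29, 16, 2, 10 and 2, and no filter 11, 9, 1, 34, 11, 6, 7 and 4. For AL-R against AL the last 3 of these settings gave 222, 1095 and 3144 genes. The causes of these moves were not tested. Same-numbered libraries correlated at -0.53 to 0.32 in the regimen table (0 of 15 best with their own number) and at -0.055 to 0.43 in the refeeding table (7 of 15), where 8 of 15 same-numbered pairs exceeded 0.1 and their median was 0.10, against -0.041 for other pairs. The labels name nothing that a number marks, so the main fits did not pair the samples by number. In the refeeding table same-numbered libraries were more alike by their median, and the main fits leave this out. The replicate block, which takes it in, called 95, 45 and 40 genes in the refed comparisons, against 28, 7 and 3. Whether the numbers mark a pairing there was not tested and cannot be told from these values.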
